A study of Mus musculus with 2 samples.

Results

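The polyamine pathway was described in untransformed mouse myeloid progenitors through 10 genes chosen by name: Odc1, Amd1, Srm and Sms for synthesis, Oaz1, Oaz2 and Azin1 for control of the first enzyme, and Sat1, Smox and Paox for breakdown. All 10 were found among the 23988 genes of the deposited table. The data are RNA-seq values of 1 group of 2 libraries, here replicate 1 and replicate 2. They were made from C57BL/6 bone marrow that had been depleted of lineage-positive cells and grown for 7 days in interleukin 3, stem cell factor and interleukin 6. The labels give no treatment, transgene or oncogene for these cells. Leukaemia cells, which the series title names, were not analysed here, so the values describe 1 condition. Nor do the labels tell if separate cultures or animals were used for each library, and the spread between the libraries may be technical. With only 2 libraries the smallest p that an exact sign-flip permutation test allows is 0.5, so no test was run.

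Polyamines (putrescine, spermidine and spermine) are small positively charged molecules that bind RNA and DNA and that dividing cells need for translation and growth. Ornithine decarboxylase (Odc1) makes putrescine from ornithine. S-adenosylmethionine decarboxylase (Amd1) makes the aminopropyl donor, which spermidine synthase (Srm) and spermine synthase (Sms) add in turn. Antizymes (Oaz1, Oaz2) bind ornithine decarboxylase and send it to the proteasome when polyamines are plentiful, and antizyme inhibitor (Azin1), a relative of the enzyme without its activity, binds the antizymes. In the way back, spermidine/spermine acetyltransferase (Sat1) acetylates the polyamines and Paox oxidises the acetylated forms, whereas Smox oxidises spermine itself and releases hydrogen peroxide.

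Values are RPKM, reads divided by gene length and library size, so levels of different genes are compared per length. The sources used here give no gene lengths, so differences between genes rest on unknown lengths. From the steps between the deposited values, the libraries were worth 29941063 (replicate 1) and 28793666 reads (replicate 2), numbers in which a normalisation factor may be hidden. Markers fixed for the labelled cell type were present: all 5 primary granule genes of neutrophils found in the table were at 1 RPKM or more in both libraries, as were 5 of 6 stem and progenitor genes, Flt3 being the exception. Of all genes in the table, 43.5% were at that level. Of the 5 B cell genes only Cd79b, and of the 6 T and NK cell genes only Nkg7, reached 1 RPKM in both libraries, while Ms4a1, Pax5, Cd3e, Cd4 and Ncr1 were listed at 0. Both libraries also held genes of other myeloid cells, at unequal levels. The 10 monocyte and macrophage genes summed to 1236 RPKM in replicate 1 against 3824 in replicate 2, where all 10 were higher. Of all genes with a mean of 1 RPKM or more, 44.1% were higher there. The 5 MHC class II genes summed to 163 and 1189 RPKM, and the 7 mast cell genes to 39.6 and 802. Of the mast cell genes, 4 reached 1 RPKM in both libraries, beside 43.5% of all genes. Slc18a2 made up 26.5 RPKM of their sum in replicate 1, where Mcpt4, Tpsb2 and Tpsab1 were below 1 RPKM. The 5 basophil genes summed to 1065 and 2058 RPKM, all 5 higher in replicate 2. The 5 primary granule genes summed to 5389.9 and 4088 RPKM, all 5 lower in replicate 2, beside 55.9% of the genes at that mean. Late neutrophil genes did not all move in 1 direction. The 8 of them summed to 53367 and 44273 RPKM, 5 being higher and 3 lower in replicate 2. Most of this sum came from S100a8 and S100a9, both lower there, whereas the median of the list went up, from 1321 to 1965. Camp, Lcn2 and Mmp8 were at least 1.5 times higher in replicate 2, beside 11.3% of genes at that mean. In replicate 1, 0 of the 8 were higher by that fold, beside 4.26%. In such bulk samples, fewer cells of a type and less RNA per cell cannot be told apart.

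Of the 10 polyamine genes, 9 reached 1 RPKM in both libraries, against 43.5% of all genes in the table. The exception was Amd1, which was listed at exactly 0 in both, as were 30.1% of all genes. Odc1 and Sat1, the first steps of synthesis and of breakdown, were the highest, and Oaz1 was the lowest above 0. Among the 9, the median level was 52.9 RPKM in replicate 1 and 31.7 in replicate 2, beside 13.4 and 13.2 for the genes with a mean of 1 RPKM or more.

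The values of Amd1 and Oaz1 have to be read with their sequences, because both genes have near-identical copies elsewhere in the mouse genome. The sources used here do not say how reads that map to several places were treated. The coding stretch of Amd1 around the serine at which the proenzyme cuts itself is shown beside that of Amd2, an intronless copy on the same chromosome. The capitals mark the codon of this serine, residue 68 in both. The Amd1 stretch lies at chr10:40294271-40294739 (GRCm38, minus strand, across exons 2 and 3), and that of Amd2 at chr10:35711326-35711385 (minus strand, exon 1). The authors' own build was mm9, so these GENCODE vM21 positions only locate the sequences.
Amd1: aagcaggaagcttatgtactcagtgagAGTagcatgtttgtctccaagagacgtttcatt
Amd2: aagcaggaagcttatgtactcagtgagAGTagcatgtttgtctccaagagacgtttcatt
The 60 bases are the same in both genes, so a read from here fits either one. Over the whole Amd1 transcript of 3204 bases, 87.6% of the 50-base words also occur in transcripts of another gene, and 86.1% in those of Amd2. Amd2 was listed at 0 in both libraries too. The remaining 390 words of the Amd1 transcript were found in no other annotated gene. The part of shared words in the listed 0 of Amd1 was not tested. This 0 is not read here as a level, and no difference between Amd1 and another gene is given. Amd1 is counted at its listed 0 only in the median and mean of the synthesis genes, which are also given without it.

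The antizyme 1 gene has a processed copy, Oaz1-ps, on another chromosome. The stretch shown carries the frameshift site, at which ribosomes must skip a base to finish antizyme, and its capitals mark the last codon of the first reading frame with the stop codon that follows. For Oaz1 it lies at chr10:80828265-80828324 (GRCm38, plus strand, exon 2) and for Oaz1-ps at chr17:17345907-17345966 (minus strand).
Oaz1: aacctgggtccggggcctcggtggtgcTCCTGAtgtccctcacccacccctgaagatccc
Oaz1-ps: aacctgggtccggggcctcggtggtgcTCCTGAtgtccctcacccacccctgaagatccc
These 60 bases are also the same in both. Of the 50-base words of the longest Oaz1 transcript, 52.2% occur in Oaz1-ps, and 489 of 1022 words have no annotated copy. No level of Oaz1-ps is given here.

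Sharing of sequence was less for the other members. Odc1, the highest member, shared 42.2% of its words with other genes. Paox shared 28.9% and Sms 28.7%, Sms with its pseudogene Sms-ps. Oaz2 shared 12.0%, Sat1 7.28%, Azin1 6.43%, Srm 2.41% and Smox 0%. Among 599 protein-coding genes of the table that share 80% or more of their words, 66.9% were listed at 0 in both libraries, against 22.7% of the 15317 that share under 10%. Which of those genes are silent in these cells was not examined. Whether shared words lowered the deposited values of Odc1, Sms and Paox was not tested.

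**Figure D1:**
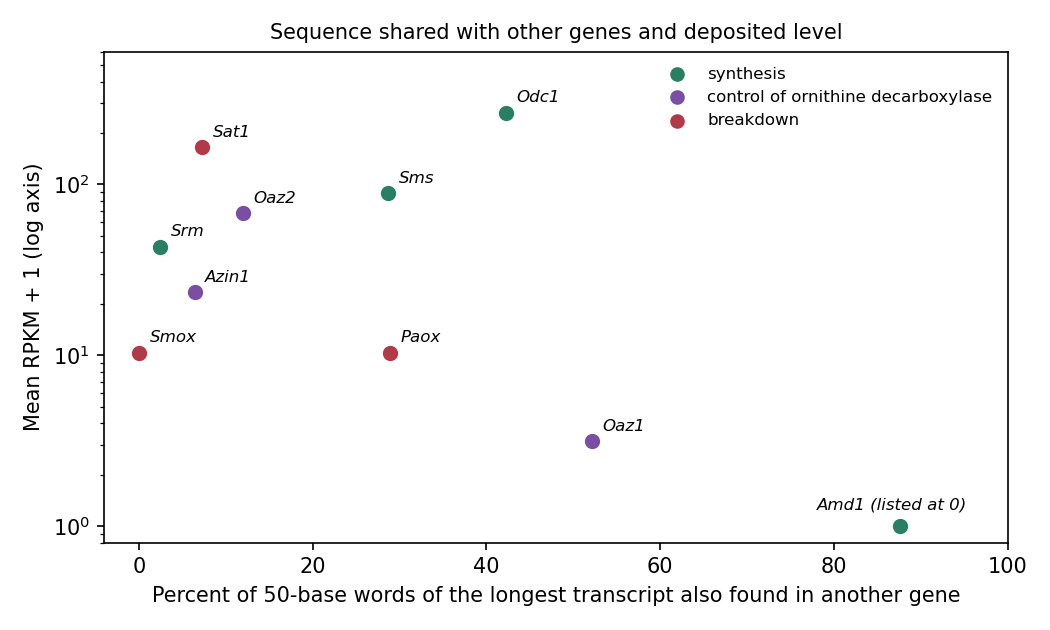
Each point is 1 of the 10 genes, with the percent of 50-base words of its longest transcript that also occur in another gene (x axis) against its mean RPKM + 1 over 2 libraries (y axis, log scale), coloured by role. Amd1, at 87.6% and listed at 0, and Oaz1, at 52.2% and a mean of 2.15 RPKM, stand at the lower right, and Odc1, at 42.2%, has the highest level.

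Synthesis genes other than Amd1 were strongly expressed in both libraries. Odc1 was at 282 RPKM in replicate 1 against 242 in replicate 2, a mean of 262 ± 28.6 (SD, n = 2), which ranked 326 among the means of all genes of the table. Sms stood at 100.3 and 75.8 RPKM, and Srm at 52.9 and 31.7. All 3 were lower in replicate 2. Spermidine synthase, which acts first, thus had the lower deposited RPKM of the 2 synthases. The smallest gene length that fits the Srm values was 2537 bases, against 1338 for its longest coding transcript. For Sms these were 813 and 3717 bases. The part of gene length in this order was not tested. Srm lay below Sms by 0.91 on the log2(RPKM + 1) scale in replicate 1 and by 1.23 in replicate 2, a mean difference of -1.07 ± 0.23 (SD, n = 2), which was beyond the spread, meaning the same sign in both libraries and a mean over 2 SD.

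**Figure D2:**
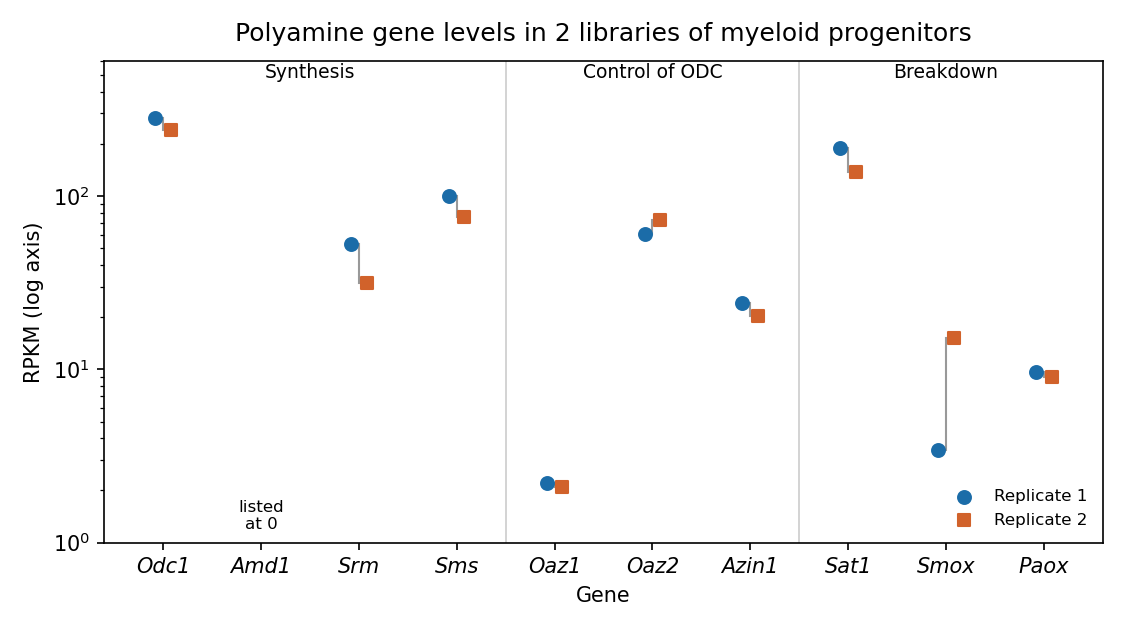
RPKM (log axis) of the 10 genes in replicate 1 (circles) and replicate 2 (squares), grouped as synthesis, control of ornithine decarboxylase (ODC) and breakdown, with lines joining the 2 libraries. Odc1, at 282 and 242 RPKM, and Sat1, at 191 and 139, are the highest, Smox has the widest gap between libraries, at 3.44 and 15.2, and Amd1 is listed at 0.

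Of the genes that control ornithine decarboxylase, Oaz2 was well expressed, Azin1 was lower and Oaz1 was just above 1 RPKM. Oaz2 stood at 60.5 and 72.7 RPKM and was higher in replicate 2. Azin1 stood at 24.2 and 20.4 RPKM. Oaz1, which encodes the most widely expressed antizyme of mammals, stood at 2.20 and 2.10 RPKM, from at least 142 and 130 reads. The 2 Oaz1 values were close to each other, with replicate 2 at 0.952 times replicate 1 (95% interval 0.745 to 1.22, exact binomial, counting error only). By the deposited values Oaz1 lay below Odc1 by -6.38 ± 0.12 and below Oaz2 by -4.42 ± 0.22, and Azin1 lay above Oaz1 by 2.88 ± 0.13 (log2 differences, SD, n = 2). All 3 differences were beyond the spread between libraries. They rest on the Oaz1 value, with the shared sequence given above, and its part in them was not tested.

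The 3 breakdown genes stood far apart. Sat1, the acetyltransferase, stood at 191 and 139 RPKM. Paox, the oxidase of the acetylated products, stood at 9.64 and 9.02 RPKM, the most even pair among the breakdown genes. Sat1 exceeded Paox 19.8 times in replicate 1 and 15.4 times in replicate 2, a log2 difference of 3.99 ± 0.26 (SD, n = 2), beyond the spread. By deposited RPKM Sat1 was below Odc1 in both libraries, by -0.68 ± 0.17 (SD, n = 2), with ratios of 0.677 and 0.573. The smallest gene length that fits was 2584 bases for Sat1, against 1162 for its longest coding transcript. For Odc1 these were 869 and 2208 bases. The part of gene length in this order was not tested. Smox, the spermine oxidase, was at 3.44 RPKM in replicate 1 against 15.2 in replicate 2. It was therefore below Paox in replicate 1, with a log2 difference of -1.26, and above it in replicate 2, with 0.69, and the order of the 2 oxidases is not settled by these libraries.

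By medians, synthesis genes lay above breakdown genes, although Sat1 stood above Sms and Srm in both libraries. The median of the 4 synthesis genes, with Amd1 counted at its listed 0, was 76.6 and 53.7 RPKM, and that of the 3 breakdown genes 9.64 and 15.2. On the log2 scale the medians differed by 2.80 in replicate 1 and 1.63 in replicate 2, a mean of 2.21 ± 0.83 (SD, n = 2), and by 2.75 ± 0.71 without Amd1. With means of the log2 values in place of medians the difference was 0.37 ± 0.55, within the spread, and it was 2.03 ± 0.63 with such means and without Amd1. Ordered by mean deposited RPKM, the genes ran Odc1, Sat1, Sms, Oaz2, Srm, Azin1, Paox, Smox and Oaz1. Of the 8 neighbouring pairs, 4 differed beyond the spread: Odc1 from Sat1, Sat1 from Sms, Srm from Azin1, and Azin1 from Paox. Sms and Oaz2, Oaz2 and Srm, Paox and Smox, and Smox and Oaz1 did not differ beyond it.

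Between the 2 libraries 7 of the 9 members above 0 differed by less than 1.5-fold, and Smox differed most. Over the 9 genes above 0 the log2 ratio of RPKM + 1, replicate 2 over replicate 1, had a median of -0.22, beside -0.05 for the 10896 genes with a mean of 1 RPKM or more, whose middle 50% ran from -0.27 to 0.23. In all, 7 of the 9 were lower in replicate 2, against 55.9% of those genes. Smox was the 1 member at least 1.5 times higher in replicate 2, where 11.3% of genes passed that fold. Srm was the 1 member at least 1.5 times higher in replicate 1, where 4.26% did. With 9 members such counts are near what the table as a whole gives. Each side is 1 library, so these differences have no replicate check.

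For Smox the read numbers that fit were at least 240 and 1021, and replicate 2 was 4.42 times replicate 1 (95% interval 3.84 to 5.11, counting error only). Srm was at 0.599 times (0.569 to 0.631), from at least 4015 and 2313 reads. Sat1 was at 0.726 times (0.708 to 0.744), Sms at 0.755 (0.710 to 0.803), Azin1 at 0.844 (0.809 to 0.881) and Odc1 at 0.857 (0.828 to 0.886). Oaz2 was at 1.20 times (1.13 to 1.28). These intervals leave out 1, that of no difference, whereas the interval of Paox, at 0.935 times (0.853 to 1.03), holds it. All of them use the smallest read numbers that fit, and are too wide where true read numbers are larger. Smox and Oaz2 were higher in the same library as the monocyte, macrophage, MHC class II, mast cell and basophil genes. The 7 other members above 0 were lower in the same library as the primary granule genes. The late neutrophil genes went both ways. Any gene that differs is higher in 1 of the 2 libraries, so a shared direction shows no link. The part of these cell types in the differences was not tested.

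**Figure D3:**
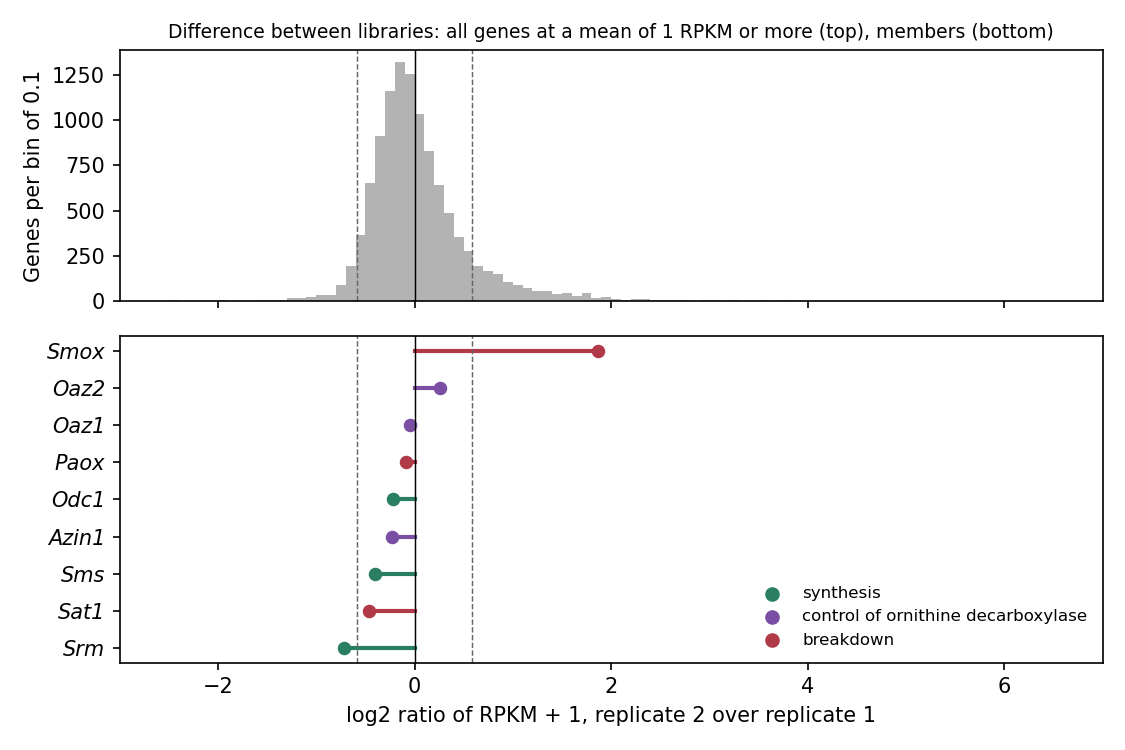
The upper panel counts genes with a mean of 1 RPKM or more by their log2 ratio of RPKM + 1, replicate 2 over replicate 1, in bins of 0.1, and the lower panel gives the same ratio for the 9 polyamine genes above 0. Dashed lines mark a 1.5-fold difference, which Smox passes on the right at 1.87 and Srm on the left at -0.72.

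The genes that supply, use and move polyamines were read from 7 lists of pathway genes. Of 10 genes around ornithine and arginine, 7 were at 1 RPKM or more in both libraries, beside 43.5% of all genes in the table. Arg1, the cytosolic arginase that makes ornithine and that macrophages express, had 9.18 RPKM in replicate 1 and 166 in replicate 2, a ratio of 18.1 (95% interval 16.2 to 20.2, counting error only). It was higher in the library with more RNA of monocyte and macrophage genes, whose part in this was not tested. Arg2, the mitochondrial arginase, stood at 4.73 and 5.03 RPKM. Oat, which interconverts ornithine and glutamate semialdehyde, stood at 36.7 and 35.4 RPKM, and Aldh18a1, which makes that semialdehyde, at 51.9 and 36.4. Ass1, argininosuccinate synthase, was the other gene of this list at least 1.5 times higher in replicate 2, at 5.14 and 14.6 RPKM. Arg1 and Ass1 were 2 of 7 listed genes with a mean of 1 RPKM or more, beside 11.3% of all such genes. Nos2, the inducible nitric oxide synthase that competes for arginine, stood at 0.0533 and 1.57 RPKM, also higher in replicate 2 but below that mean. Otc and Agmat were listed at 0. Odc1 was lower in the library in which Arg1 and Ass1 were higher.

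Genes of methionine supply, of methylthioadenosine salvage and of hypusination were mostly expressed in both libraries and lower in replicate 2. Over the 3 lists all 12 genes with a mean of 1 RPKM or more were lower in replicate 2, beside 55.9% of all such genes. A 1.5-fold difference was reached by 0 of the 12, beside 11.3% of all such genes toward replicate 2 and 4.26% toward replicate 1. Mat2a, which makes S-adenosylmethionine outside the liver, stood at 54.9 and 37.6 RPKM, while its liver counterpart Mat1a was listed at 0. Mtap, which clears the methylthioadenosine that both synthases release, stood at 13.7 and 9.45 RPKM, and the later salvage genes Mri1, Apip, Enoph1 and Adi1 between 10.5 and 28.6. The median log2 ratio was -0.28 for methionine supply, -0.31 for salvage and -0.40 for hypusination, beside -0.05 for all genes.

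Eif5a, whose protein carries hypusine, an amino acid made from spermidine, was the highest gene of these lists at 778 and 570 RPKM. Its relative Eif5a2 stood at 0.836 and 0.995 RPKM. Dhps and Dohh, the enzymes that build hypusine, stood at 16.1 and 12.1 RPKM and at 41.2 and 31.0. The coding stretches around the modified lysine are shown to tell the 2 genes apart, with the lysine codon in capitals, residue 50 in both. They lie at chr11:69918007-69919195 (GRCm38, minus strand, across exons 3 and 4) for Eif5a and at chr3:28782172-28782742 (plus strand, across exons 2 and 3) for Eif5a2.
Eif5a: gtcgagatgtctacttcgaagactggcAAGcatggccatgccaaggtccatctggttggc
Eif5a2: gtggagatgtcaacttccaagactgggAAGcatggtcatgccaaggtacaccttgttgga
The 60 bases differ at 9 positions, and 7.13% of the words of Eif5a and 0% of those of Eif5a2 occur in another gene. In contrast to Amd1 and Oaz1, these 2 relatives can thus be told apart by most of their sequence.

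Of 13 transport genes, 6 were at 1 RPKM or more in both libraries, near the 43.5% of all genes in the table. Atp13a3 and Atp13a2, ATPases of the endosomal and lysosomal system that carry polyamines, stood at 131 and 106 RPKM and at 76.4 and 147, so their order differed between the libraries. Slc3a2, the heavy chain of amino acid transporters, stood at 61.4 and 55.5 RPKM, and the arginine transporter genes Slc7a1 and Slc7a2 at 24.8 and 18.2 RPKM and at 5.29 and 17.1. Atp13a2 and Slc7a2 were at least 1.5 times higher in replicate 2, as were 11.3% of all genes with a mean of 1 RPKM or more. Of the 4 relatives of the members that were found in the table, 0 reached 1 RPKM: Oaz3, an antizyme of the testis, stood at 0.0543 and 0.226 RPKM, Sat2 at 0.0153 and 0.0159, and Amd2 and Satl1 at 0.

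Myc, whose protein is a known activator of Odc1, was read with 10 relatives and partners. The Myc level was 75.8 RPKM in replicate 1, against 91.5 in replicate 2, and that of Max, its partner, 19.0 and 21.1. Of the 10 genes of the list with a mean of 1 RPKM or more, 8 were higher in replicate 2, against 44.1% of all such genes. The list was drawn up by relation to Myc, so the count does not measure MYC activity. A 1.5-fold difference was reached by 0 of the 10, against 11.3% of all genes toward replicate 2 and 4.26% toward replicate 1. Odc1 and Srm were lower in the library in which Myc was higher. With 2 libraries no relation between them can be tested.

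**Figure D4:**
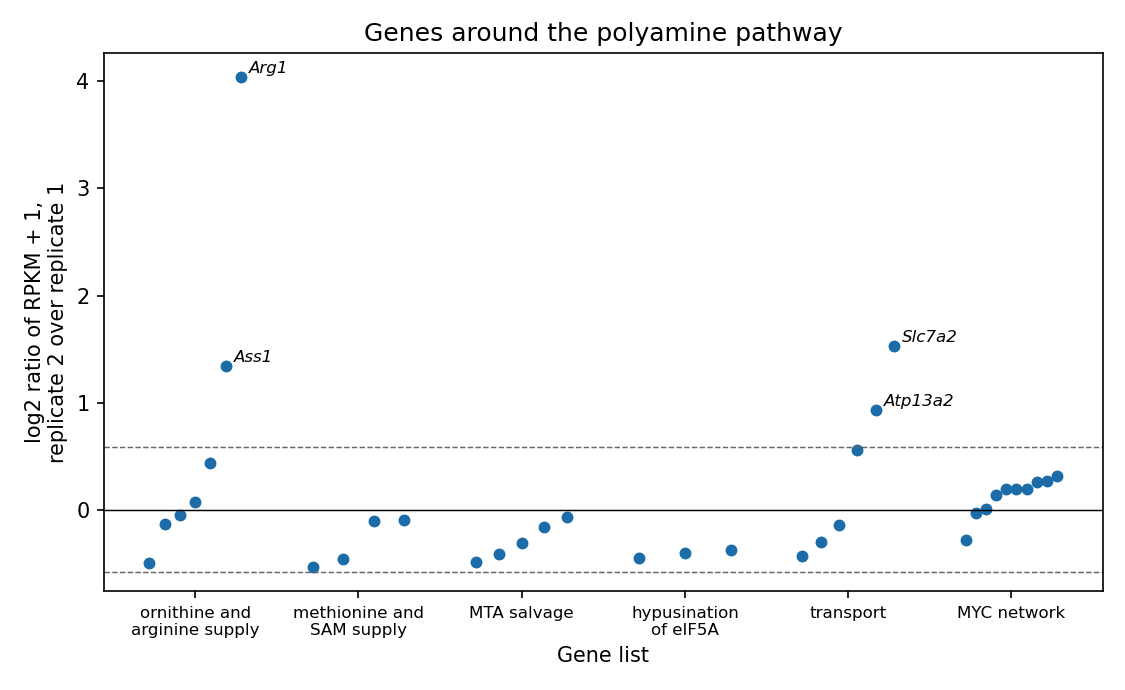
Each point is 1 gene with a mean of 1 RPKM or more from 6 lists around the pathway, plotted by its log2 ratio of RPKM + 1, replicate 2 over replicate 1 (SAM, S-adenosylmethionine; MTA, methylthioadenosine). Dashed lines mark a 1.5-fold difference. Arg1 at 4.04, Slc7a2 at 1.53, Ass1 at 1.34 and Atp13a2 at 0.93 lie above the upper line, and no gene lies below the lower one.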

How the data were processed

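The authors deposited RPKM values for 2 libraries, 1 column each, matched to replicates by column name and sample title. The submitters' processing notes name Trimmomatic 0.32, TopHat2, HTSeq and edgeR with build mm9. The sources used here give no settings, annotation, gene lengths or strand setting. Of 24015 rows, 27 named as dates were left out. Differences between genes were taken within each library on the log2(RPKM + 1) scale, as mean and SD over 2 libraries. Ratios between libraries used the same pseudocount, which understates differences of low genes. Of 9 planned differences between genes 8 are given, since Amd1 was listed at 0. Read numbers are the smallest that give whole reads and a whole length. Their scale came from 69 matches among 1825 genes with 1 transcript in GENCODE vM21, and intervals cover counting error only. Words of 50 bases were compared over GENCODE vM21 transcripts on both strands, so unannotated copies were missed. Fold counts, and recovery of read pairs in lowest terms with the ratio of library sizes supplied, were tested on simulated data. The steps that set that ratio, the scale and the whole length were not. Named genes are the 10 members and any gene of the 7 pathway lists. Members and lists were chosen with earlier results of these data known. Azin2 and Azu1 were not matched. Python 3.11.15, pandas 2.3.3 and SciPy 1.17.1 were used.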

Additional observations from a re-analysis of the deposited data

How the results depend on the processing

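With a pseudocount of 0.1 RPKM in place of 1, Oaz1 lay below Odc1 by -6.86 and below Oaz2 by -4.89, and Azin1 above Oaz1 by 3.31. With both libraries scaled to 1 common summed RPKM, the first and the third were -6.57 and 3.05. All kept their direction. Synthesis minus breakdown was 0.37 with means of log2 values in place of medians. With both libraries kept, the other 26 alternative values of the differences and counts stayed within 1 SD or within 1.5 times the count. Leaving out 1 of 2 libraries gives the value of the other library and says nothing about stability. Smox minus Paox, which was within the spread, was 0.69 without replicate 1 and -1.26 without replicate 2, so its sign differed, while the other 7 differences had 1 sign in both libraries. Leaving out Amd1 was an alternative chosen after seeing the data. Setting the median log2 ratio to 0 moved Odc1 to -0.17 and Sat1 to -0.40, and a pseudocount of 0.1 moved Smox to 2.11. The library counts could not be recomputed without a replicate. No paired analysis was possible because the labels give 1 group. By the smallest read numbers that fit, Oaz1 had the fewest reads of the members above 0 and the widest counting interval relative to its ratio. True read numbers may be larger.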
